A study of Mus musculus with 13 samples.

Results

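Of 20807 protein-coding genes on the mouse autosomes, 6084 (29.2%) had no peak of open chromatin at any of their promoters in any of 13 ATAC-seq libraries of cultured oligodendrocyte precursor cells (OPCs). These closed-promoter genes were chosen by the absence of called peaks, with the GENCODE M21 annotation, a promoter running from 2 kb before to 1 kb after each annotated transcription start. A further 8950 genes (43.0%) had a promoter peak in all 13 libraries, and 5773 (27.7%) in 1 to 12 of them. That absence is given as a description and was not tested.

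ATAC-seq marks open chromatin by the insertion of the Tn5 transposase. The cells came from litters at postnatal days 5 to 7, whose dorsal telencephalons (labelled cortex, and also holding corpus callosum and hippocampus) and brainstems were pooled by region and genotype. K27M pups carried an H3-3a-LSL-K27M allele, which yields histone H3.3 K27M once Cre removes a stop cassette, together with hGFAP-Cre (written AMGFAP-Cre in the labels), active in neural stem and progenitor cells. Controls were littermates, for which the labels name no alleles, and the mice had been backcrossed to the FVB strain. OPCs were purified on an antibody to PDGFRα after a plate that removes endothelial cells and microglia, and all cultures were kept undifferentiated in proliferation medium with PDGF. From brainstem there were 3 libraries of each genotype, and from telencephalon 3 of control and 4 of K27M cultures. Each library was a list of 16879 to 52466 called peaks, without read counts. Sequencing depth is therefore unknown, and "closed" means that no peak was called, not that the DNA was inaccessible. In bulk cultures, a promoter open in few cells cannot be told apart from one that is weakly open in all of them.

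A promoter is the stretch of DNA around a transcription start where the transcription machinery assembles, and in an active gene it is usually free of nucleosomes. Most broadly used mammalian genes start in CpG islands, stretches rich in the dinucleotide CpG that tend to be accessible in many cell types. Genes used in a single tissue more often start in CpG-poor DNA that is packed away elsewhere, and large families such as the olfactory receptors lie in long arrays of such genes.

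The contrast can be seen in the DNA itself. Below are the 200 bases before the transcription start of 5 genes, from RefSeq promoters on GRCm38.p6, 5′ to 3′ on the gene's strand. Capitals mark every CpG and, within the last 60 bases, the TATA box letters TATAAA. The first 4 genes were closed in every library and the last was open in all 13. Olfr1030, an olfactory receptor (chr2:85979112-85979311, plus strand), stands for the largest closed family, and has 1 CpG.
Olfr1030: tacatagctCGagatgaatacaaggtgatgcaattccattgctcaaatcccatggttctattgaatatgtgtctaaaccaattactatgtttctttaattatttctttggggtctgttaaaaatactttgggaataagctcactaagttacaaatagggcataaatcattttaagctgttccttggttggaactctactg
Krtap4-7, a keratin-associated protein of hair (chr11:99644090-99644289, minus strand), stands for the closed tissue-specific genes with a TATA box. It has 1 CpG, and its TATA box begins at position -31 from the start.
Krtap4-7: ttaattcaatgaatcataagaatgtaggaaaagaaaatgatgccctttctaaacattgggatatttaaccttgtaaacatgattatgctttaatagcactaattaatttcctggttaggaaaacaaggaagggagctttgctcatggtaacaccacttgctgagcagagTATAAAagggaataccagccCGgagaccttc
Oxt, which encodes the peptide hormone oxytocin (chr2:130575969-130576168, plus strand), stands for the closed neuropeptides, and has 4 CpGs.
Oxt: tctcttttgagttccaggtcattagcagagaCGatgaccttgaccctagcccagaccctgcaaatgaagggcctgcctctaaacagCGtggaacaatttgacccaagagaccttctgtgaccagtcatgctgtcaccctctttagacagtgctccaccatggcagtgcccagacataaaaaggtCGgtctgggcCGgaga
Arhgdia (chr11:120581625-120581824, minus strand) stands for the few closed genes with a CpG-rich promoter, and has 32 CpGs.
Arhgdia: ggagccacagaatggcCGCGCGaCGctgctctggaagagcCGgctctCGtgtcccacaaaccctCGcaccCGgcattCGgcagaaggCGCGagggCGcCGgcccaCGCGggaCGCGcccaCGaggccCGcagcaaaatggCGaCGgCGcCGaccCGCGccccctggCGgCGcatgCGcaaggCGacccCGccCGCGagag
Olig2, a transcription factor that defines the oligodendrocyte lineage (chr16:91225350-91225549, plus strand), is the open comparison, and has 17 CpGs. The TATAAA in its last 60 bases lies at position -8.
Olig2: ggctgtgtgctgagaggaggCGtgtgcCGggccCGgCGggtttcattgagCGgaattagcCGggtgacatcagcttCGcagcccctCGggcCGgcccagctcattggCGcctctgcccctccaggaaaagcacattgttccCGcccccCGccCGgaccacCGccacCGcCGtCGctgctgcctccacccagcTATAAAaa

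Genes of the labelled cell type were looked at first. Of 12 OPC genes, 0 had a closed promoter (1 with only peaks of p at most 1e-06) and 10 were open in all 13 libraries, among them Pdgfra, the receptor used for purification, Sox10, Olig1, Olig2 and Nkx2-2. Few astrocyte genes (1 of 12) and neuronal structural genes (1 of 29) were closed as well. The open promoters therefore do not tell OPCs from other neural cells. Of 23 ribosomal and reference genes, 19 were open in all 13 libraries and only Eef2, a translation elongation factor, was closed. Single libraries lacked a peak at 7228 to 11338 coding promoters. The highest of these values belonged to control telencephalon culture 59, which had the shortest list. Without that library 6100 genes were closed, and leaving out any other single library gave up to 6207.

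The boundary of the set was not sharp. For 488 closed-promoter genes (8.02%) some library had a peak within 1 kb of the promoter window, and for 1553 (25.5%) the nearest peak lay more than 100 kb away. The median distance was 20209 bp. The genes just inside the boundary were Anxa8 at 7 bp, Hoxc13 at 8 bp, Olfr178 and Ttn at 9 bp and Col6a4 at 10 bp. Just outside it were 742 genes with a promoter peak in a single library. The strongest of these single peaks were at Gm13279 (4.37-fold over local background), Bnipl (3.91-fold), Ccl7 (3.68-fold), H2-T24 (3.53-fold) and Clec11a (3.47-fold). The median fold of the single peaks was 2.51. For promoters open in all 13 libraries, the median of each gene's mean fold was 3.56.

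**Figure D1:**
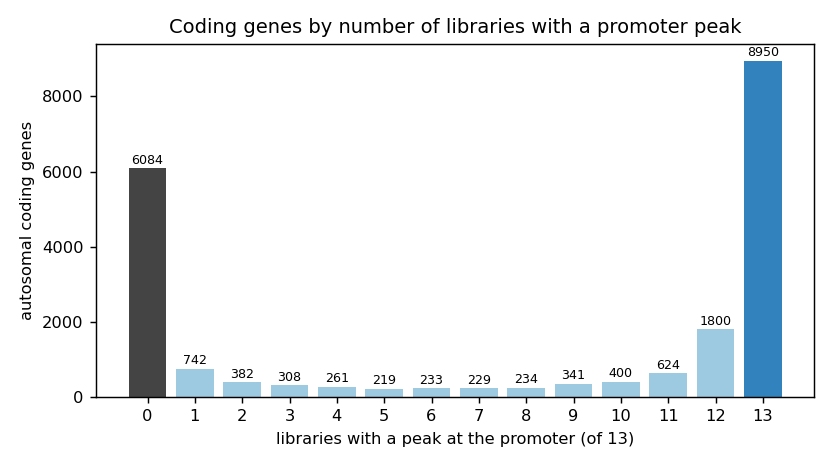
Number of autosomal coding genes (y axis) by the number of libraries, 0 to 13, with a peak at the promoter (x axis). The bars at both ends are the highest, with 6084 genes closed in every library and 8950 open in all 13.

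Receptors for odours, pheromones and tastes were the largest group. Of 1505 such receptor genes, 1464 (97.3%) were closed, and they made up 24.1% of all closed-promoter genes. Olfactory receptors (Olfr), which odour-sensing neurons of the nose express 1 at a time, were closed at 1091 of 1128 genes. Vomeronasal receptors, which detect pheromones, were closed at 205 of 208 Vmn1r and 118 of 119 Vmn2r genes. All 35 bitter taste receptors (Tas2r) and all 15 trace amine-associated receptors (Taar) were closed. Without these 5 families, 4620 of 19302 genes (23.9%) were closed.

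A few receptor genes were exceptions. Olfr1331 and Olfr94 had a promoter peak in all 13 libraries, with a highest fold of 4.56 and 5.77. Olfr95, the neighbour of Olfr94 on chromosome 17, had one in 12 libraries. Vmn1r4 was open in all 13 with a highest fold of 6.44. Whether these peaks serve the receptor gene or another element within the window was not tested.

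The second group formed barriers and secretions. Late cornified envelope proteins (Lce, 21 of 21) and small proline-rich proteins (Sprr, 15 of 15), both of the outer skin, were closed throughout. Keratin-associated proteins of hair were closed at 55 of 57 genes and keratins (Krt) at 45 of 53. Among the exceptions, Krt1 was open in all 13 libraries. Alpha-defensins (Defa, 22 of 22) and beta-defensins (Defb, 40 of 42), which are antimicrobial peptides, were closed as well. So were 33 of 34 secretoglobins, 21 of 22 major urinary proteins (Mup) and 25 of 26 genes of the prolactin family.

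Families of liver and immune function were closed in part. UDP-glucuronosyltransferases (Ugt) were closed at 20 of 22 genes, and the exception open in all 13 was Ugt8a, which makes a galactolipid of myelin. Cytochrome P450 enzymes were closed at 65 of 100 genes, serpins at 44 of 60, killer cell lectin-like receptors (Klr) at 22 of 26, chemokines at 20 of 35 and interleukins with their receptors at 34 of 77. With only peaks of p at most 1e-06 the interleukin count was 54.

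At the other end stood families with general or neural roles. No gene of the 18 Sox factors or the 19 ionotropic glutamate receptors (Gri) was closed. Mitochondrial ribosomal proteins had 1 closed gene of 78, respiratory complex I (Nduf) 1 of 44 and proteasome subunits (Psm) 3 of 49. Potassium channels (Kcn) had 15 closed genes of 92 and GABA-A receptor subunits (Gabr) 3 of 16. Zinc finger proteins (Zfp) had 50 of 385, with a mean repeated share of the window of 44.6% in those 50. Several of these counts depended on weak peaks. With only peaks of p at most 1e-06, when 40.6% of all coding genes were closed, the closed genes were 39 of 92 Kcn (42.4%), 7 of 16 Gabr (43.8%), 6 of 18 Sox, 4 of 19 Gri and 2 of 78 mitochondrial ribosomal genes. Without control brainstem culture 61, 1 Sox gene was closed. Hox genes had 12 closed of 39 (30.8%), near the share of all coding genes, 0 were open in all 13 libraries, and 31 were closed at that cutoff. Genes with only a clone or model name were closed at 1124 of 1783 (63.04%), with a mean repeated share of the window of 35.3% in those 1124.

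**Figure D2:**
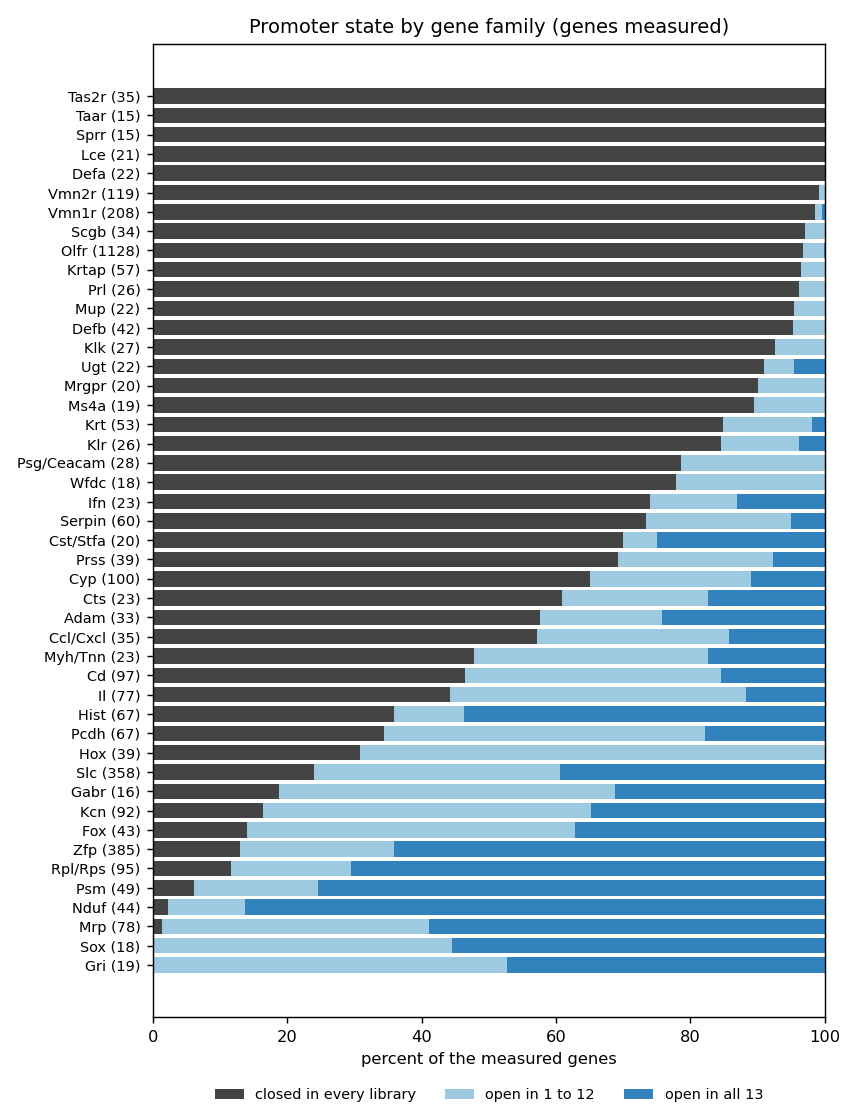
Percent of the genes of each family (y axis, genes measured in parentheses, families of 15 or more genes) whose promoter was closed in every library, open in 1 to 12 libraries or open in all 13 (x axis, stacked bars). Chemosensory, defensin and skin barrier families are nearly all closed, and Sox and Gri have 0 closed genes.

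Whether genes of the nervous system were in the set depended on the peak cutoff. Over 5 neuronal lists with 136 genes, 21 (15.4%) were closed with all peaks, against 29.2% of all autosomal coding genes. With only peaks of p at most 1e-06 the order turned, with 70 of 136 (51.5%) closed against 8441 of all 20807 coding genes (40.6%). The genes named next are those closed with all peaks. Of 29 neuronal structural and synaptic genes, only Sncg (gamma-synuclein) was closed, and 12 were open in all 13 libraries, among them Tubb3, Map2, Snap25 and Syt1. Of 33 neurogenic and neuronal subtype transcription factors, Neurog3 and Fev, a factor of serotonin neurons, were closed, and 7 were open in all 13, among them Neurog2 and Atoh1. Of 23 transmitter enzymes and transporters, Dbh and Pnmt, the last enzymes towards noradrenaline and adrenaline, were closed.

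With all peaks, neuropeptides were the most often closed neuronal list, at 13 of 35 (37.1%) against 29.2% of all coding genes. The closed neuropeptides were Avp, Cck, Gnrh1, Nms, Npb, Nts, Oxt, Pmch, Pomc, Tac2, Trh, Ucn3 and Vip. Only Crh and Agrp were open in all 13 libraries. The nearest peak lay 650 bp from the window at Tac2, 667 bp at Avp and 722 bp at Oxt, but 28351 bp at Trh and 35500 bp at Npb. Npb lies between Anapc11 and Pcyt2, in a peak-free stretch of chromosome 11 that also held promoters of broadly used genes and is described below. With only peaks of p at most 1e-06, the closed genes numbered 5 of 29 (17.2%) in the structural list, below the 40.6% of all coding genes. Above that share were then 16 of 33 transcription factors (48.5%), 17 of 23 transmitter genes (73.9%) and 25 of 35 neuropeptides (71.4%). At this cutoff neuropeptides were thus no longer the most often closed list. The GABA-A receptor subunits, with 7 of 16 (43.8%), were near it. The GABA-A receptor subunits closed with all peaks were Gabra6, a subunit of cerebellar granule cells, Gabrr1 and Gabrr3.

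Within the glial lineage, 3 of 11 myelin genes (27.3%) were closed, near the 29.2% of all coding genes. The closed ones were Mag, Mog and Aspa, genes of mature oligodendrocytes, whereas Cnp, Cldn11 and Ugt8a were open in all 13 libraries. Of 12 astrocyte genes, only the gap junction gene Gjb6 was closed, and Gfap, Glul, Slc1a2, Gja1 and Sox9 were open in all 13. At p at most 1e-06, 5 myelin genes (45.5%) and 2 astrocyte genes (16.7%) were closed, against 40.6% of all coding genes. Markers of the cells removed by panning can be set beside the 29.2% of all coding genes. Of 20 microglia and myeloid genes, 14 were closed and 0 were open in all 13, the closed ones including Csf1r, Cx3cr1, Trem2, Itgam and Spi1. Of 16 endothelial genes, 6 (37.5%), or 10 at p at most 1e-06, were closed (Cdh5, Emcn, Ly6c1, Slco1a4, Tek and Tie1) and 1 was open in all 13.

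Genes of other tissues made up most of the listed members. Over 14 such lists with 311 genes, 201 (64.6%) were closed, and 257 (82.6%) at p at most 1e-06. Intestine had 17 of 20, pancreas 18 of 23 and lymphocytes 20 of 26. Liver had 20 of 29, among them Alb (albumin), Hnf4a and Cyp7a1, the rate-limiting enzyme of bile acid synthesis. Erythroid genes had 10 of 15. For the beta-globin genes Hbb-bs and Hbb-bt, which lie in the chromosome 7 run from Olfr558 to Trim34b, the nearest peak was 523019 and 537119 bp away. Photoreceptors had 14 of 23, sperm 16 of 25, meiosis 14 of 24 and skeletal and cardiac muscle 14 of 33, which was 25 at p at most 1e-06.

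**Figure D3:**
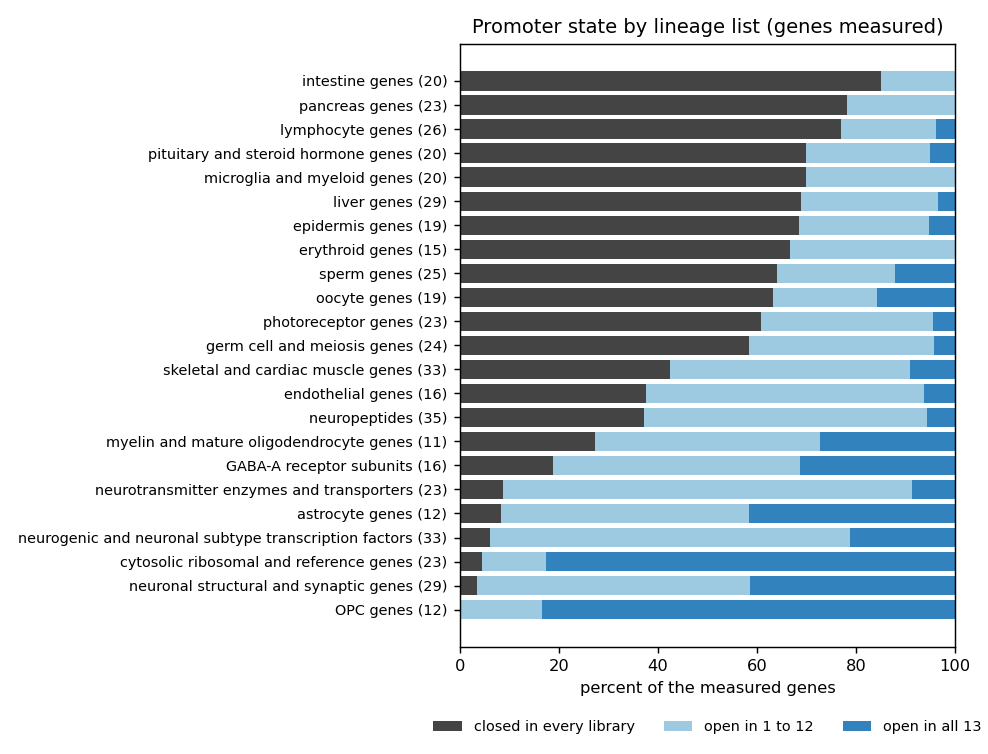
Percent of the genes of each lineage list (y axis, genes measured in parentheses) whose promoter was closed in every library, open in 1 to 12 libraries or open in all 13 (x axis, stacked bars). Intestine has the highest closed share (17 of 20) and the OPC list has 0 closed genes of 12.

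Closed-promoter genes often stood side by side. Along the chromosomes they formed 2312 runs of neighbouring coding genes, and 1588 genes (26.1%) stood alone. Runs of 10 or more genes numbered 92 and held 2437 genes (40.1%) over 104 Mb, with at least 1 such run on each of the 19 autosomes. In 28 of them the most frequent name was Olfr, in 17 Gm and in 10 Vmn. The share of closed genes per chromosome ran from 17.6% on chromosome 12 to 42.0% on chromosome 14. Chromosome 7 came next with 41.9%, which fell to 28.1% without chemosensory receptors, whereas chromosome 14 still had 39.2%.

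The longest run was 132 genes on chromosome 2, from Pramel6 to Olfr1274-ps, of which 128 were olfactory receptors. It spanned 2897 kb and held 0 peaks in every library, in gene bodies and between genes alike. The next was 106 genes on chromosome 7, from Igsf23 to Vmn1r183, with 0 to 2 peaks per library over 4126 kb. It was followed by 101 genes from Olfr987 to Olfr1126 on chromosome 2 and 98 from Olfr558 to Trim34b on chromosome 7, each with 0 or 1 peak per library.

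The other runs among the 10 longest differed in kind. On chromosome 8, 56 genes from Spag11a to Ccdc70 held the alpha-defensins. On chromosome 14, 55 genes from Gm3159 to Gm3642 and 52 from Mat1a to Gm10375 were mostly gene models. Over all chromosomes, closed genes named Gm with a number had a mean repeated share of the promoter window of 42.1%. In all closed-promoter genes it was 13.2%, and these runs were not measured apart. On chromosome 17, 51 genes ran from Olfr99 to Esp15. The run of 44 genes from Krt12 to Krtap29-1 on chromosome 11 spanned only 563 kb and had 1 to 6 peaks per library, 6.14 per Mb on average. That was the highest density of the 10, and the run of 44 genes from Ovch2 to Nlrp10 on chromosome 7 had 0.067 per Mb.

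The density of peaks inside the 92 long runs was compared between groups. Control brainstem libraries had 0.729, 0.805 and 0.949 peaks per Mb, and K27M brainstem libraries 1.33, 0.527 and 0.451. Control telencephalon libraries had 0.815, 0.499 and 0.834, and K27M telencephalon libraries 0.940, 1.07, 0.594 and 0.901. The groups overlapped. The means were 0.799 in brainstem and 0.808 in telencephalon (exact permutation test within genotype, two-sided, p = 0.959), and 0.831 in K27M and 0.772 in control (exact permutation test within region, p = 0.713). With every list reduced to its 16879 most significant peaks, control telencephalon culture 59, whose list is kept whole, stood apart at 0.499, while the other libraries had 0.0671 to 0.173.

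Peaks in gene bodies were less frequent in closed-promoter genes than in other coding genes. A body peak overlapped the gene but touched none of its own promoter windows. At least 1 library had one in 1293 closed-promoter genes (21.3%), against 8854 of 14723 other coding genes (60.1%). Closed-promoter genes were shorter, with a median of 7670.5 bp against 24573 bp, and 511 of them lay wholly inside their promoter windows. They also had fewer annotated starts, with a median of 2 against 4. A gene with fewer starts has fewer windows in which a peak can fall, and the part of this in closure was not tested. In every length class the share with a body peak was lower than in other genes. It was 10.2% against 19.4% for genes of 2 to 10 kb, 33.4% against 60.7% for 10 to 50 kb, and 86.8% against 98.5% above 100 kb. No test was made, since both peaks at promoters and peaks in bodies come from the same lists.

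Families differed in their bodies too. A body peak was found in 28 of 1464 closed chemosensory receptor genes (1.91%), in 0 of 55 Krtap genes and 0 of 22 Defa genes, but in 45 of 86 closed solute carriers (Slc) and 10 of 15 closed potassium channels. Their lengths differ as well: the median was 6223.5 bp for the receptors and 25132.5 bp for the solute carriers. Closed genes of the 14 tissue lists had a body peak in 63 of 201 cases (31.3%), and those of the 5 neuronal lists in 7 of 21.

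Body peaks ranged from a single library to all of them. They were found in 1 library in 370 closed-promoter genes, in 2 to 11 libraries in 706, in 12 in 88 and in all 13 in 129. In the libraries, 25.3% to 28.9% of body peaks touched an exon of the gene, and the others were intronic. The median fold of the body peaks was close to that of all peaks in each list, for example 3.10 and 3.08 in control brainstem culture 61. The median width was 560 to 684.5 bp, against 630 to 822 bp for all peaks.

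Among the 10 genes with body peaks in all 13 libraries and the highest mean fold, Cdrt4 came first, with folds of 4.61 to 5.83 and a median of 5.21. It was followed by Mroh2b (3.71 to 6.07, median 4.83) and Gm17655 (3.77 to 6.22, median 4.46). Spata16, a gene of sperm formation, had folds of 3.68 to 5.84 in its body of 345593 bp, with 4.23 peaks per library on average. Kmo, an enzyme of tryptophan breakdown, had folds of 3.03 to 5.52, but its strongest peak lay at the promoter of its neighbour Fh1. The strongest peaks of Gm49337, Gm21983, Gm45716 and Atp5o likewise lay at promoters of other genes (Pik3r3, Rab4b, Mmd, and Cryzl1 and Itsn1). The entry named Atp5o is a long model of 242585 bp that reaches across the promoters of Cryzl1 and Itsn1. The remaining gene was a read-through model named Arhgap26. Of the 1293 genes, 1185 (91.6%) had a body peak away from the promoters of all other annotated genes.

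Several listed genes combined a closed promoter with body peaks in 11 or all 13 libraries. Each fold is that of the strongest body peak of a library. Positions were not compared between libraries, so the peak counted need not be the same one in each. Ptprc, the pan-leukocyte phosphatase CD45, had a body peak in all 13 libraries (folds 2.99 to 4.55, median 4.20), and so had the microglial receptor Cx3cr1 (2.59 to 4.49, median 3.19). The photoreceptor phosphodiesterase Pde6a and the cardiac troponin Tnnt2 had one in all 13, with median folds of 3.43 and 3.39. The neuropeptide precursor Pomc had one in 11 libraries, missing in 1 control brainstem and 1 control telencephalon library, with a median of 3.34. The liver factor Hnf4a and the endothelial receptor Tek also had one in 11. Rag2, needed for antigen receptor rearrangement, had one in all 13 (3.38 to 5.70), which lay at the promoter of B230118H07Rik. In the keratin run, Krt40 had a body peak in all 13 libraries (3.50 to 5.22, median 4.17), and it lay at no other annotated promoter. The axon guidance gene Slit1 and the imprinted potassium channel gene Kcnq1, picked after their values were seen, were closed at every promoter with body peaks in all 13 (medians 4.13 and 4.06).

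Body peaks were then compared between regions and genotypes, which the choice of the genes had not used. Control brainstem libraries had a body peak in 6.94%, 7.38% and 12.98% of closed-promoter genes, and K27M brainstem libraries in 12.2%, 7.53% and 6.02%. Control telencephalon libraries had 8.58%, 3.44% and 10.5%, and K27M telencephalon libraries 9.39%, 12.1%, 6.10% and 9.73%. All 4 groups overlapped. The mean was 8.85% ± 2.97 (SD, n = 6) in brainstem and 8.56% ± 2.92 (n = 7) in telencephalon (exact permutation test within genotype, two-sided, p = 0.857). It was 9.02% ± 2.60 (n = 7) in K27M and 8.31% ± 3.27 (n = 6) in control (exact permutation test within region, p = 0.667). After adjustment over the 4 tests of body peaks and run density, p was 0.959 for each. The difference between K27M and control was -0.504 percentage points in brainstem and 1.83 in telencephalon, and these differences were not distinguishable either (exact permutation test, p = 0.497). The smallest p these 700 arrangements allow is 0.00143.

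The share followed the number of peaks in each list, with Pearson's r of 0.991 and a Spearman rank correlation of 0.989 over the 13 libraries, which share the counted peaks. With every list reduced to its 16879 most significant peaks, the share lay between 3.07% and 3.71% in all libraries.

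**Figure D4:**
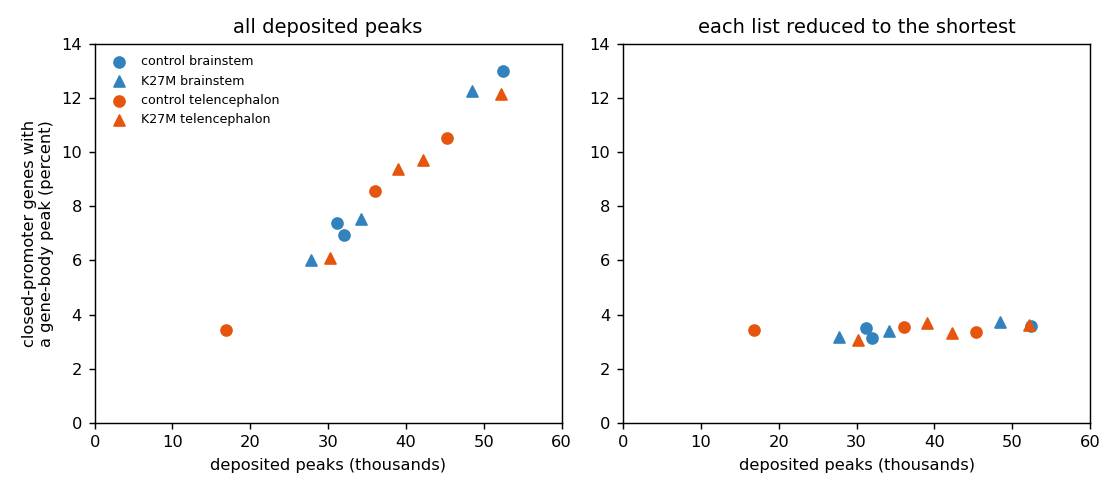
Percent of the 6084 closed-promoter genes with a gene-body peak in each library (y axis) against the number of deposited peaks (x axis, in units of 1000), with all peaks on the left and with each list reduced to 16879 peaks on the right. Points are libraries, with circles for control, triangles for K27M, blue for brainstem and orange for telencephalon. On the left the share climbs with peak number from 3.44% to 12.98%, and on the right it stays between 3.07% and 3.71%.

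Body peaks were also compared gene by gene. Those found in 5 to 8 libraries were compared by two-sided Fisher's exact test with Benjamini-Hochberg adjustment over 1663 coding genes, of which 219 had closed promoters. For region, 0 genes passed an adjusted p of 0.05, and 23 of all genes tested (1.38%) had an unadjusted p below 0.05. The closed-promoter gene among these was Flrt1, an adhesion protein, with a body peak in 5 of 7 libraries from telencephalon and in 0 of 6 from brainstem. Those from telencephalon were 4 of 4 K27M and 1 of 3 control libraries. For genotype, 0 genes passed, and 19 (1.14%) were below 0.05 unadjusted, 4 of them closed-promoter genes. Slc30a8, a zinc transporter of insulin granules, and Cib4 each had a body peak in 5 of 7 K27M and 0 of 6 control libraries, and Iqcm in 6 of 7 and 1 of 6. The receptor tyrosine kinase gene Ros1 had one in 1 of 7 K27M and 5 of 6 control libraries. All 5 were picked for naming with their values known. The smallest adjusted p was 1 for region and 0.969 for genotype. With 6 libraries against 7, the smallest possible p of the exact test is 0.000583, which over 1663 genes adjusts to 0.969 for a single gene. A gene that separated the groups completely could therefore not pass on its own, and the counts of 0 say nothing about the absence of differences.

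The promoters of closed genes shared a base composition that the choice had not used. CpG observed over expected compares the number of CpGs with that from the C and G content alone. Over the 3 kb window at the gene's 5′ end its median was 0.161 in closed-promoter genes, 0.393 in genes open in 1 to 12 libraries and 0.545 in genes open in all 13. Over the central 1 kb it was 0.165, 0.546 and 0.751, and the GC content there was 44.9%, 55.7% and 59.5%. Closed chemosensory receptors had 0.105 and 36.8%. The share of closed genes was 87.6% where the ratio was below 0.1, 54.8% between 0.2 and 0.3, 8.45% between 0.5 and 0.6, and 3.16% between 0.7 and 0.8. The few genes above 1.1 (34, of which 3 were closed) did not continue this order.

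The TATA box letters TATAAA, searched on both strands in the 60 bases before the 5′ end, were present in 601 closed-promoter genes (9.88%), in 3.41% of genes open in 1 to 12 libraries and in 1.34% of genes open in all 13. Over all autosomal coding genes the share was 4.41%. A match of letters is a description and does not show a working site.

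**Figure D5:**
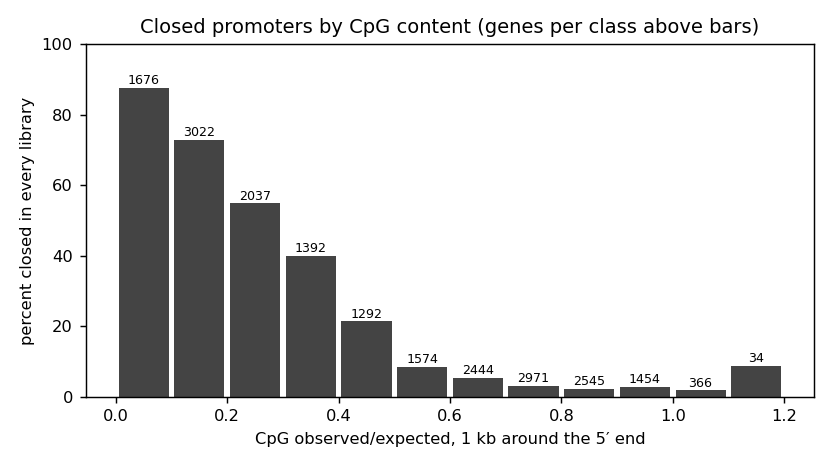
Percent of autosomal coding genes closed in every library (y axis) in classes of CpG observed over expected in the 1 kb around the gene's 5′ end (x axis), with the number of genes of each class above its bar. The share is 87.6% below 0.1 and 3.16% between 0.7 and 0.8.

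CpG content also ran through the lineage lists. A promoter was called CpG-rich with a ratio of at least 0.6 and a GC content of at least 55% in the central 1 kb. Of 45 CpG-rich genes in the neuronal lists, 1 (Fev) was closed, against 20 of 91 others (22.0%). In the 14 tissue lists, 9 of 31 CpG-rich genes were closed, against 192 of 280 others (68.6%). In the meiosis list, 6 of 13 CpG-rich genes were closed, with the highest ratios at Ddx4 (0.733), Sycp1 (0.720) and Mael (0.693).

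Repeated sequence, in which short reads cannot be placed uniquely, moved with closure as well, and its part in the result was not tested. The mean share of 75-base words (the read length) in the promoter window that recur elsewhere in the assembly was 13.2% in closed-promoter genes and 1.44% in other genes. The closed share was 21.3% where no word recurred and 97.5% where over 80% did, and 673 closed-promoter genes (11.1%) had more than 50% repeated words. By this measure most of the set held little repeated sequence, since 4209 genes (69.2%) had under 5%. Only exact words in the window at the gene's 5′ end were counted, so near-identical copies and other promoters were not assessed. Median repeated shares were high in Defa (74.6%) and Mup (72.9%) and low in Olfr (0.847%). Among coding genes with under 5% repeated words, the closed share was 2.15% of 7851 with CpG-rich promoters and 39.8% of 10151 others.

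A small group went against the rest. CpG-rich promoters made up 54.4% of other coding genes, but 243 closed-promoter genes (3.99%) had one too, and 169 of these had under 5% repeated words. Several are used in nearly every cell, and were picked after their values were seen. On chromosome 11 a stretch of 131 kb without a peak in any library (chr11:120514459-120645004) held 9 such promoters, namely Gcgr, Mcrip1, P4hb, Arhgdia, Alyref, Anapc11, Pcyt2, Sirt7 and Mafg. P4hb is an enzyme of collagen and protein folding, Alyref exports mRNA and Anapc11 is a subunit of the anaphase-promoting complex. On chromosome 9 a stretch of 103 kb held C2cd2l, H2afx, Hyou1 and Slc37a4, and on chromosome 15 one of 91.1 kb held Josd1, Gtpbp1 and Sun2.

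In all, 15 peak-free stretches of 20.4 to 131 kb held 2 or more such promoters with little repeat, 40 genes together. The median length of these stretches, which were chosen for holding several closed promoters, was 72.6 kb. Further examples were Psma7, a proteasome subunit, with Ss18l1 on chromosome 2, and Rps19bp1 with Atf4, a stress response factor, on chromosome 15. The chromosome 15 stretch also held the CpG-rich promoter of Mief1, with 11.9% repeated words. Eef2 lay 7022 bp from the nearest peak. The study removed reads in blacklisted regions before calling peaks. The blacklist was not used here, and its part in these stretches was not tested.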

How the data were processed

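The authors trimmed the paired 75-cycle reads with Trim Galore 0.6.7 and cutadapt 3.4, aligned them to mm10 with BWA 0.7.17-r1188, and, in each library alone, ran MACS2 2.2.7.1 for broad peaks after taking out reads in blacklisted regions, at a cutoff not given in the sources used here. The deposited peak lists hold a signal that is the fold enrichment (a ratio to local background), p-values and q-values as −log10, and a display score. Read counts were not used here, so depth and counting error are unknown. The labels give each library a culture number; the study's methods describe matched control and K27M cultures assayed together, without saying which numbers match, so a fit with culture number as a block was run beside the unblocked one. Litters were pooled, and p-values measure only the spread between these libraries.

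A promoter was open with a peak overlap of at least 1 bp. Groups were compared by exact permutation within the other factor, and detection per gene by Fisher's exact test with Benjamini-Hochberg adjustment (SciPy 1.17.1). The code was first tested on simulated data. Promoter composition was read from GRCm38.p6. RefSeq promoters matched 4358 of 6080 closed-promoter gene symbols (71.7%), under 80%, so a composition check on RefSeq promoters is void and they served only for the printed sequences. Repeats were exact 75-base words, taken every 25 bases. The genes and lists were chosen with earlier results of these data known. By the naming rule, the text names genes of the lists, the 5 nearest the boundary on each side, the 10 with body peaks in most libraries (ties by mean fold), the 10 longest runs and the families with the highest and lowest closed share. Other genes and families, such as family exceptions and Krt40, were chosen after their values were seen. Alternatives covered peak significance, equal peak number, promoter windows, overlap, transcript starts, leaving out a library and a replicate block.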

Additional observations from a re-analysis of the deposited data

How the results depend on the processing

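The size of the set depended on how significant a peak had to be. With peaks of p at most 1e-10, 10770 promoters were closed and the listed genes among them numbered 403. With every library reduced to the shortest list, the listed genes numbered 349. Leaving out 1 library gave 6100 to 6207 closed promoters, 1283 to 1308 with a body peak, 2459 to 2480 genes of the named families and 226 to 233 listed genes.

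No group difference was distinguishable under any alternative run (exact permutation p from 0.188 to 1), and the signs were not stable. The cause was not tested. Some runs could not have reached p below 0.05, namely those of 3 libraries against 3 (within control or brainstem alone) and the genotype block. Nothing follows from their p-values. For body peaks, brainstem minus telencephalon was -0.0219 percentage points at equal peak number, -0.744 within K27M alone and -0.562 to 0.890 without 1 library. K27M minus control was -0.504 within brainstem and -0.259 to 1.65 without 1 library. The genotype difference between regions was 0.0315 at equal number and -4.16 to -0.294 without 1 library. For peaks per Mb in long runs, brainstem minus telencephalon was 0.00434 with p at most 1e-06, 0.000457 with p at most 1e-10, 0.112 within control and -0.116 to 0.0605 without 1 library. K27M minus control was -0.0514 at equal number, -0.0575 within brainstem and -0.0240 to 0.123 without 1 library. Without 1 library, 0 genes passed the adjusted Fisher's exact test for either factor, but no single gene can pass it in this design, so this count says nothing about stability.

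Of 16 same-number pairs of libraries, 4 had deviations correlated above 0.1 (-0.221 to 0.263). Of 47 pairs with different numbers, 11 did (-0.256 to 0.265), so the numbers did not set the pairs apart. With culture number as a replicate block, K27M minus control was -0.276 for body peaks (-0.161 at equal number) and -0.0710 for runs (-0.0614 at equal number), and brainstem minus telencephalon was 0.0352 for runs. The block changed no call. For genotype it holds too few same-number pairs for an exact test to reach p below 0.05. The unchanged genotype call was therefore fixed in advance and says nothing about stability.

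Peak lists without read counts limit every statement to whether a peak was called. The sequence comparison was repeated over 1 kb around the 5′ end, a width chosen after seeing the data, with the same order of the 3 classes.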

Other observations

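The X chromosome, which was not part of the autosomal set, had 451 of 948 coding genes (47.6%) closed in every library.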
